A study of Mus musculus with 4 samples.

Results

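Interferon-stimulated genes were followed through single-cell libraries of the mouse brain after stroke. The set was a list of 41 gene symbols, and its members were the rows of the count tables that carried these symbols. Of the 41 symbols 39 were matched among 31253 measured genes; Mx1 and Mx2 are not analysed here. The libraries are single-cell RNA sequencing of the injured hemisphere, taken at day 3 of tMCAO (transient occlusion of the middle cerebral artery, a stroke model in which the vessel is blocked and then reopened). The design set 2 libraries from conditional knockout mice (Ms4a3 cKO), given as Htr2b ERCre; Ms4a3-Cre, against 2 libraries from Htr2b flox/flox littermates (Flox control). Both groups were adult mice with the genotype label C57B6, of male or female sex or both, and the design text gives tamoxifen and a washout of 3 days before surgery. Htr2b encodes a serotonin receptor, and Ms4a3 marks progenitors of granulocytes and monocytes, so the Cre is aimed at blood-derived myeloid cells; the text names an ERCre as well, and which allele acted in which cells cannot be read from it.

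Type I interferons are secreted after cells sense viral or misplaced nucleic acids, and they signal through a receptor that is present on nearly every cell. The receptor's kinases phosphorylate Stat2, which acts with Irf9 in a complex that binds the interferon-stimulated response element in the promoters of target genes. Interferon gamma acts at a different DNA element, the gamma-activated site, and several genes answer to both signals. The members cover nucleic acid sensors (Ifih1, Dhx58, Zbp1, Ifi204, Ifi211), transcription factors (Stat2, Irf9, Irf7) and the feedback protease Usp18. They also cover the ubiquitin-like modifier Isg15 with its ligase Herc6, the RNA-binding Ifit family, the OAS family that makes the activator of RNase L, and the neighbouring antiviral enzymes Rsad2 and Cmpk2. The remaining effectors include the membrane proteins Bst2 (tetherin, which holds budding virus at the cell surface) and Ifitm3 (which blocks fusion of entering virus), the kinase Eif2ak2, and Parp9, Dtx3l and Parp14, which act in ADP-ribosylation.

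Promoter sequence is shown for 6 members on which the results below turn: Isg15, Ifit1 and Rsad2 were among the 5 members with the smallest p in microglia, Ifit3 and Ifit3b led the border macrophages, and Bst2 had the smallest p in monocyte-macrophages. Capitals mark the core of the interferon-stimulated response element on either strand, searched as GAAA, any 2 bases and GAAA again. Each line reads 5′ to 3′ on the strand of its gene.
Isg15: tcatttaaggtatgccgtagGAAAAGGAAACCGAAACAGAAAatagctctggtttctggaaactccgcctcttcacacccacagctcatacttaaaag
Ifit1: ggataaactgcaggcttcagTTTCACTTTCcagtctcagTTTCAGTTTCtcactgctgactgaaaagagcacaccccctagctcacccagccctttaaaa
Ifit3: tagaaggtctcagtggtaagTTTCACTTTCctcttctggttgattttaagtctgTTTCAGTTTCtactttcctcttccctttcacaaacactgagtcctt
Ifit3b: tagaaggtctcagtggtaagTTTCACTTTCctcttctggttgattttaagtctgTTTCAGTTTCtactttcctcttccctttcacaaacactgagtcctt
Rsad2: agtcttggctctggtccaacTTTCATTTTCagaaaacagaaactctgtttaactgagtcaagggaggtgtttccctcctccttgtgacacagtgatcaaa
Bst2: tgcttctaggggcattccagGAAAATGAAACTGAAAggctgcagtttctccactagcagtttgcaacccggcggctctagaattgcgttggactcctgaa
The stretches are from RefSeq on GRCm38.p6, at chr4:156200819-156200916 (minus strand) for Isg15, chr19:34640765-34640864 (plus) for Ifit1, chr19:34583353-34583452 (plus) for Ifit3, chr19:34607749-34607848 (plus) for Ifit3b, chr12:26456493-26456592 (minus) for Rsad2 and chr8:71537523-71537622 (minus) for Bst2. All lie before the annotated start of transcription. The shown stretches of Ifit3 and Ifit3b differed at 0 bases, and over the whole aligned windows 201 of 268 bases (75.0%) were equal; the genes are neighbouring copies, and how reads were divided between them is uncertain.

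Windows from 250 bases before to 50 bases after the start were found for 30 members. The core motif, searched on both strands, lay in the window of 17 of these 30 (56.7%), against 3.99% of 27025 genes. In Isg15 it occurred 3 times in overlapping copies, in Bst2 in 2 overlapping copies, and in Ifit1, Ifit3 and Ifit3b in 2 separate copies. The gamma-activated site TTCNNNGAA lay in 6 windows (20%), against 9.55% of all genes; in Bst2 it overlapped the core motif. No match for either motif was found in the windows of Sp100, Ifi44, Oasl2, Oasl1, Herc6, Irf7, Irf9, Xaf1, Cmpk2, Dtx3l and Lgals3bp. That says only that these letters are not in them.

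After filtering, 14904 and 15299 cells were kept in the Ms4a3 cKO libraries and 13215 and 16267 in the Flox control libraries. The deposited matrices held 77580518 and 84397197 unique molecular identifiers (UMIs, the counted molecules) for Ms4a3 cKO and 105566650 and 105545311 for Flox control; the median cell had 3764 and 4004 UMIs in Ms4a3 cKO libraries, against 6599 and 5523 in Flox control libraries. Across libraries 15 barcode sequences recurred. The labels do not say that libraries came from separate animals, so each p-value reflects the spread among these 4 libraries alone, and that spread may be technical. Htr2b stood at 9.36 and 14.8 CPM (UMIs per 1000000 of the class's UMIs) in Ms4a3 cKO monocyte-macrophages, against 82.7 and 76.9 in Flox control; in microglia it stood at 101 and 85.9 in Ms4a3 cKO, against 46.2 and 109 CPM in Flox control. The labels do not give the deleted exons, so a 3′ tag may lie outside them. In the member genes Flox control 1 stood apart in most classes, and the genotype comparisons of 5 classes are given with and without it.

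Cells were clustered without the member genes and without 118 other interferon pathway genes, so that these genes did not shape the clusters. The clusters were assigned to 17 classes, called by their markers (microglia-like and so on, given by the class name alone) or by their number, and 13 of these had at least 50 cells in every library. The monocyte-macrophage class was drawn by hand: clusters 5 and 22 had no monocyte-macrophage score among their best 3 and joined it on single markers (Gpnmb and Ms4a7 in the leading genes of cluster 5), cluster 6 scored higher on border macrophage markers than on those of monocyte-macrophages, and cluster 4, led by macrophage genes too, was kept apart. The summed member genes were highest in endothelial cells, neutrophils and cluster 8, which carries markers of dendritic cells and monocytes, and lowest in oligodendrocytes. In endothelial cells the members made up 41.7 and 40.5 of every 10000 UMIs in Ms4a3 cKO 1 and 2, against 84.3 and 43.3 in Flox control 1 and 2. Neutrophils had 86.7 and 18.7 per 10000 in Ms4a3 cKO, against 74.9 and 21.1 in Flox control, so that replicates of a genotype lay further apart than the genotypes. Microglia had 14.9 and 24.7 in Ms4a3 cKO, against 46.4 and 20.7 in Flox control. Monocyte-macrophages had 37.1 and 27.8 in Ms4a3 cKO, against 23.1 and 27.7 in Flox control. Oligodendrocytes had 3.77 and 4.17 in Ms4a3 cKO, against 6.66 and 3.67 in Flox control. Flox control 1 was the highest library in 10 of the 13 classes, Ms4a3 cKO 1 in monocyte-macrophages and neutrophils, and Ms4a3 cKO 2 in the choroid plexus. Endothelial cells, neutrophils and cluster 8 did not differ in order beyond the spread of their libraries, and neither did border macrophages, monocyte-macrophages and microglia.

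**Figure D1:**
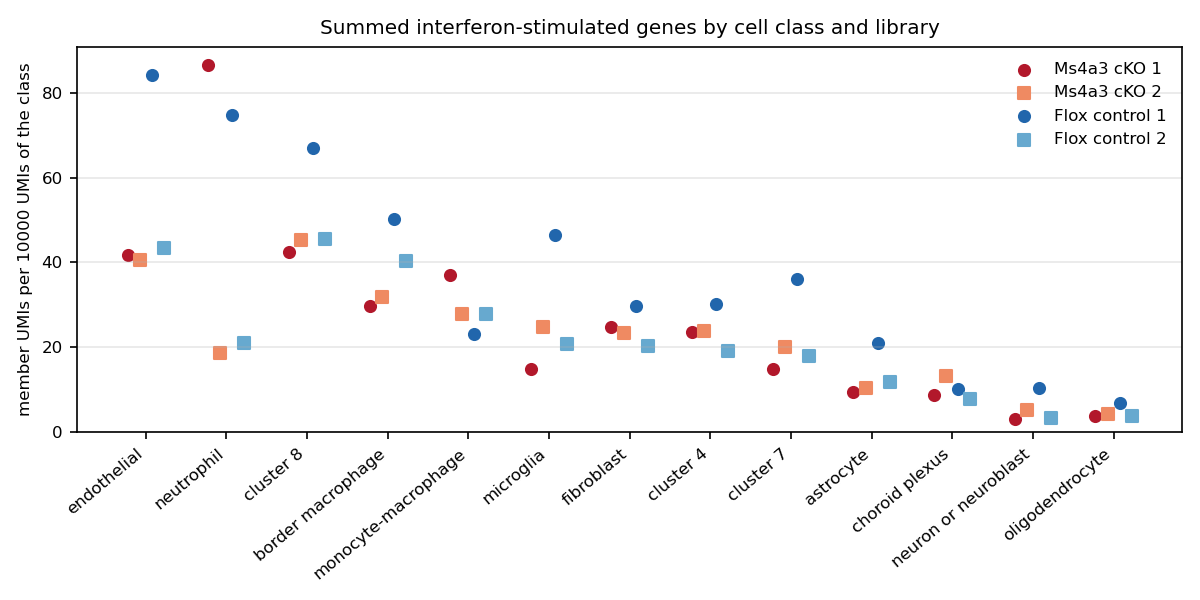
UMIs of the 39 member genes per 10000 UMIs of each class (y axis), with 1 point per library: red for Ms4a3 cKO and blue for Flox control, circles for replicate 1 and squares for replicate 2. Flox control 1 reached 84.3 in endothelial cells and 46.4 in microglia, above the other 3 libraries, while in neutrophils Ms4a3 cKO 1 (86.7) and Flox control 1 (74.9) stood high together.

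Members differed in where they were most abundant. By mean CPM over the 4 libraries, 14 members were highest in neutrophils, 11 in cluster 8, 8 in endothelial cells, 3 in border macrophages, 2 in microglia and 1 in the low-UMI cluster 7. The differences from microglia were tested in fits with library as a block, which use all 4 libraries. In endothelial cells over microglia, 14 members were higher and 13 lower with edgeR's quasi-likelihood test at an adjusted p under 0.05; of all genes, 29.2% were called higher and 32.6% lower. Ifi44, an interferon-induced protein, stood at 33.9, 46.8, 290.9 and 69.1 CPM in endothelial cells of Ms4a3 cKO 1 and 2 and Flox control 1 and 2, against 0.557, 1.29, 10.1 and 3.23 in microglia (log2 fold change 4.78, SE 0.24, adjusted p = 2.56e-06). Ifitm3 was at 1514 to 2187 CPM in endothelial cells, against 61.2 to 252 in microglia (3.70, SE 0.41), and Ifit1 and Gbp2, a guanylate-binding protein, were also higher (2.18 and 2.09). In each of these 4 genes, all 4 endothelial values lay above those of the microglia of the same library. Of the members with a mean of at least 20 CPM, the 4 with the most negative fold changes were the sensor Ifi204 (5.35 to 14.9 CPM in endothelial cells, against 128 to 260 in microglia; -4.04, SE 0.24), Phf11b (-3.60), Ifi27l2a (-3.14) and the secreted glycoprotein gene Lgals3bp (-2.61).

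In neutrophils over microglia, 9 members were higher and 4 lower in the same test, with 21.5% of all genes called higher and 27.9% lower. Oas2 was at 77.5, 16.1, 78.4 and 18.8 CPM in neutrophils, in the order of libraries above, against 2.29, 7.25, 18.5 and 7.17 in microglia (2.50, SE 0.60, adjusted p = 0.00333). Gbp2 (2.32), Ifitm3 (2.16) and Oasl2 (2.05) followed it among the members with a mean of at least 20 CPM. Lgals3bp was at 9.08 to 18.8 CPM in neutrophils, against 111 to 542 in microglia (-3.71, SE 0.31), and Phf11b (-2.55), Bst2 (-2.03) and Eif2ak2 (-0.96), the kinase that stops translation on double-stranded RNA, were lower too. In monocyte-macrophages over microglia, 5 members were higher (Oas3, Slfn5 at 1.27, Ifi211 at 1.26, Sp100 at 1.06 and Bst2 at 0.89) and 2 lower (Parp9 at -0.73 and Lgals3bp at -0.54), where 22.1% of all genes were higher and 22.4% lower. The share of members called lay near or below that of all genes in these comparisons, except for endothelial cells, where 14 of 39 were higher. Single libraries moved these counts. In monocyte-macrophages 13 members were higher with Flox control 1 left out, as were 3166 of 13680 genes. With Ms4a3 cKO 1 left out, 2 members were higher and 8 lower, against 2267 and 2243 of 14047 genes. When Flox control 2 or Ms4a3 cKO 2 was left out, 1 member was higher and 1 lower, among 4922 and 3962 genes called. In neutrophils 18 members were higher without Flox control 2 (2517 of 13006 genes) and 17 without Ms4a3 cKO 2 (2490 of 13082). There 10 members were lower without Ms4a3 cKO 1 (2870 of 13021 genes).

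In microglia, member genes were lower in Ms4a3 cKO, but the difference followed Flox control 1. No member passed edgeR's test (0 of 39; 0 of 14435 genes called, 0%), with 11 members and 1531 genes at an unadjusted p under 0.05; DESeq2 called 5 members lower and 251 genes in all. The log2 fold changes of 38 of the 39 members were below 0, with a median of -1.09, against a median of 0.00 over all genes tested, of which 49.9% were higher. Flox control 1 was the highest library for 37 of 39 members (22.5% of all genes) and Ms4a3 cKO 1 the lowest for 33 (17.9% of all genes). In 14 members both Ms4a3 cKO libraries lay below both Flox control libraries and in 0 above; for all genes these shares were 15.4% and 34.2%. Replicates differed by a median of 0.63 (log2) over the members between Ms4a3 cKO libraries and by 1.00 between Flox control libraries.

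The members with the smallest p in microglia were Ifit3b, Ifit1, Ifi44, Rsad2 and Isg15, in each of which the genotypes did not overlap. Ifit3b stood at 4.56 and 6.49 CPM in Ms4a3 cKO 1 and 2, against 30.2 and 12.7 in Flox control 1 and 2 (-2.14, SE 0.53). Ifit1 stood at 19.8 and 16.8 CPM in Ms4a3 cKO, against 69.5 and 34.1 in Flox control (-1.68, SE 0.43). Ifi44 stood at 0.557 and 1.29 CPM in Ms4a3 cKO, against 10.1 and 3.23 in Flox control (-3.02, SE 0.77). Flox control 1 was the highest library in all 3 genes. Rsad2, the enzyme viperin, stood at 56.0 and 47.7 CPM in Ms4a3 cKO, against 141 and 83.4 in Flox control (-1.29, SE 0.34). Isg15 stood at 5.02 and 3.50 CPM in Ms4a3 cKO, against 12.2 and 7.68 in Flox control (-1.40, SE 0.39). The adjusted p of all 5 was 0.464 with edgeR. Their promoters are those shown above, other than that of Ifi44, in whose window the core motif was not found.

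The members with the highest CPM in microglia showed a different order of libraries, with Flox control 2 inside the range of the Ms4a3 cKO libraries. Lgals3bp stood at 111 and 203 CPM in Ms4a3 cKO, against 542 and 130 in Flox control (-1.31, SE 0.76, edgeR adjusted p = 0.538). Trim30a, a TRIM-family protein, stood at 146 and 211 CPM in Ms4a3 cKO, against 438 and 191 in Flox control (-1.003, SE 0.49). Ifitm3 stood at 61.2 and 129 CPM in Ms4a3 cKO, against 252 and 99.3 in Flox control (-1.07, SE 0.60). In all 3 the 2 Flox control libraries lay on either side of Ms4a3 cKO 2. The same order held for Slfn5 (62.6 and 150 CPM in Ms4a3 cKO, against 290 and 106 in Flox control), Ifi204 (128 and 213, against 260 and 139), Parp9 (99.5 and 158, against 206 and 123), Sp100 (77.2 and 146, against 197 and 106) and the transcription factor Irf9 (77.2 and 118, against 160 and 89.1). Irf9 overlaps Rnf31 on the same strand, and Parp9 overlaps its partner Dtx3l on the opposite strand; no source used here gives the strand setting of the counting, so reads of such pairs cannot be told apart. Ifi35 was the single member not lower, at 11.3 and 13.4 CPM in Ms4a3 cKO, against 12.6 and 9.56 in Flox control.

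By role, the rest of the microglial members kept Flox control 1 on top, apart from Bst2. Among the Ifit genes, Ifit2 stood at 50.7 and 68.8 CPM in Ms4a3 cKO, against 189 and 96.8 in Flox control (-1.44, SE 0.42), and Ifit3 at 32.6 and 65.6, against 188 and 71.0 (-1.59, SE 0.61). Neither overlapped between genotypes. Usp18, the protease that damps receptor signalling, stood at 4.49 and 10.8 CPM in Ms4a3 cKO, against 44.6 and 10.1 in Flox control (-2.04, SE 0.85). The transcription factor Irf7 stood at 2.72 and 4.67 CPM in Ms4a3 cKO, against 10.4 and 4.93 in Flox control, and Stat2 at 53.9 and 79.7, against 123 and 53.7. Usp18 and Stat2 overlapped between genotypes and Irf7 did not. Oasl2 stood at 31.8 and 90.1 CPM in Ms4a3 cKO, against 229 and 59.2 in Flox control, and the sensor Zbp1 at 7.51 and 13.3, against 37.3 and 9.92; both overlapped. Cmpk2 stood at 15.2 and 14.6 CPM in Ms4a3 cKO, against 38.8 and 22.7 in Flox control (-1.22, SE 0.35), with no overlap, like its neighbour Rsad2. Bst2 stood at 19.9 and 20.3 CPM in Ms4a3 cKO, against 23.9 and 28.3 in Flox control (-0.51, SE 0.15), and was the member with Flox control 2 highest.

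Without Flox control 1 the median over the members in microglia was -0.14, with 0 members called of 52 genes called. Without Flox control 2 the median was -1.67, with 35 members called lower among 4766 genes. Of the 5549 microglia of Flox control 1, 3341 lay in cluster 2, while clusters 0 and 1 held most of those of the other libraries, but Flox control 1 was also highest within each microglial cluster. In cluster 0 the members made up 17.3 and 23.03 per 10000 UMIs in Ms4a3 cKO, against 32.9 and 18.7 in Flox control. In cluster 1 they made up 12.7 and 32.6 in Ms4a3 cKO, against 57.0 and 27.9 in Flox control. Cluster 9, which carries cell cycle genes, had 11.97 and 16.4 in Ms4a3 cKO, against 28.01 and 14.4 in Flox control. The 10 microglial markers, none of them at 0, summed to 15940 and 16930 CPM in Ms4a3 cKO, against 29200 and 19830 in Flox control. The 12 monocyte-macrophage markers summed to 12140 and 11360 CPM in Ms4a3 cKO microglia, against 7794 and 14400 in Flox control. The part of either list in the result was not tested.

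**Figure D2:**
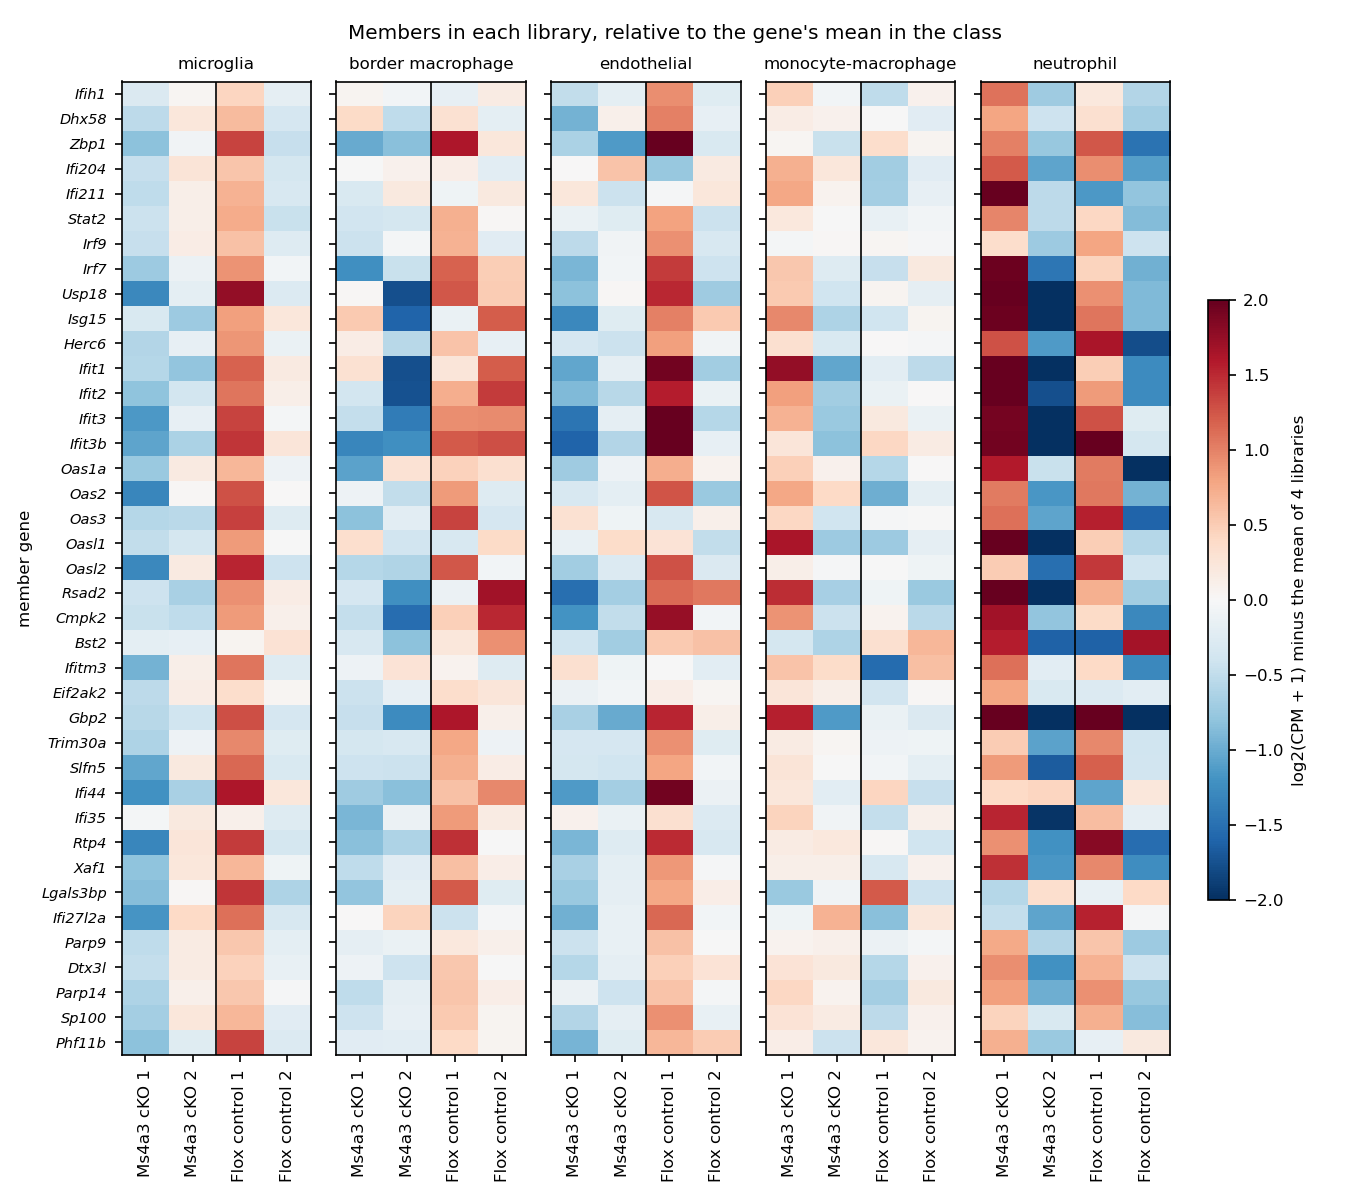
Each row is 1 member gene, in order of role from sensors to nuclear proteins, and each column 1 library; the colour gives log2(CPM + 1) minus the mean of the 4 libraries in that class, from -2 (blue) to 2 (red). In microglia the column of Flox control 1 is red for nearly all members. In border macrophages both Flox control columns are red for Ifit2, Ifit3 and Ifit3b, while Ifit1 overlapped between genotypes. In neutrophils the columns of Ms4a3 cKO 1 and Flox control 1 are red together.

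Border macrophages, the resident macrophages of the meninges and vessels, were the class in which a member passed the test between genotypes. Ifit3b fell to 3.30 and 3.53 CPM in Ms4a3 cKO 1 and 2 (5 and 6 UMIs), against 23.8 and 24.99 CPM in Flox control 1 and 2 (21 and 71 UMIs; log2 -2.80, SE 0.40, edgeR adjusted p = 0.0455). Both Ms4a3 cKO libraries lay below both Flox control libraries, and the replicates of a genotype lay close together. Its neighbouring copy Ifit3 stood at 48.8 and 25.3 CPM in Ms4a3 cKO, against 131 and 133 in Flox control (-1.84, SE 0.30, edgeR adjusted p = 0.0644). Ifit2 stood at 62.7 and 23.5 CPM in Ms4a3 cKO, against 135 and 215 in Flox control (-2.04, SE 0.41, edgeR adjusted p = 0.113). These 2 genes did not pass the threshold, although their genotypes did not overlap either. Ifit1 did overlap, at 44.9 and 9.99 CPM in Ms4a3 cKO, against 43.0 and 85.2 in Flox control. Ifit3b was called among 36 of 8908 genes (0.404%), and 37 of the 39 members passed the filter on low counts. Of these 37, 34 had a log2 fold change below 0, with a median of -0.73 against -0.01 over all genes. In 25 members both Ms4a3 cKO libraries lay below both Flox control libraries and in 1 above, against 22.7% and 21% of all genes.

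Other effectors in border macrophages differed in which Flox control library was the higher one. Rsad2 stood at 73.2 and 38.8 CPM in Ms4a3 cKO, against 84.9 and 298 in Flox control. Cmpk2, a nucleotide kinase that neighbours Rsad2 on chromosome 12, stood at 20.5 and 9.41 CPM in Ms4a3 cKO, against 40.8 and 84.1 in Flox control. In these genes Flox control 2 was the highest library. Oasl2 stood at 83.8 and 81.7 CPM in Ms4a3 cKO, against 298 and 120 in Flox control, and Trim30a at 188 and 192, against 410 and 225. In these Flox control 1 was the highest. Ifitm3 (571 and 742 CPM in Ms4a3 cKO, against 645 and 514 in Flox control), Ifi27l2a (267 and 362, against 197 and 263) and the sensors Ifi204 (265 and 280, against 290 and 230) and Ifih1 (121 and 112, against 103 and 130) overlapped or were not lower.

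The border macrophage difference held its direction without any 1 library, while the number of calls moved. Leaving out Flox control 1 gave a median over the members of -0.47, and leaving out Flox control 2 gave -0.97. Each of these fits rested on 1 Flox control library and called more of all genes too, so member calls are not counted here. Without Ms4a3 cKO 1 or without Ms4a3 cKO 2 no member was called, and Ifit3b was at -2.76 and -2.85 (edgeR adjusted p = 0.488 and 0.227). The 6 border macrophage markers summed to 17880 and 17660 CPM in Ms4a3 cKO, against 11330 and 9682 in Flox control, and the 10 microglial markers to 3053 and 3559, against 4736 and 4815. None of these markers was at 0, and their part in the result was not tested. The class held 203 and 251 cells in Ms4a3 cKO and 138 and 357 in Flox control.

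Endothelial cells, like microglia, had the highest summed level in Flox control 1, while the other 3 libraries lay close together. Of 38 members that passed the filter, 34 had a log2 fold change below 0, with a median of -0.89 against -0.01 over all genes; 0 were called by edgeR among 11427 genes (0%), and 10 members and 761 genes had an unadjusted p under 0.05; DESeq2 called 2 members lower (Rsad2 and Gbp2) and 52 genes in all. Both Ms4a3 cKO libraries lay below both Flox control libraries in 22 members and above in 0, against 17.1% and 21.6% of all genes. Rsad2 stood at 37.1 and 66.8 CPM in Ms4a3 cKO, against 236 and 223 in Flox control (-2.17, SE 0.32, edgeR adjusted p = 0.334). Here the Flox control libraries lay close together and did not overlap those of Ms4a3 cKO. Gbp2 stood at 95.6 and 74.6 CPM in Ms4a3 cKO, against 435 and 163 in Flox control (-1.84, SE 0.50). Bst2 stood at 11.8 and 9.47 CPM in Ms4a3 cKO, against 23.2 and 24.3 in Flox control (-1.18, SE 0.31). Ifit1 stood at 73.8 and 135 CPM in Ms4a3 cKO, against 584 and 94.1 in Flox control, so that its genotypes overlapped. Flox control 1 was the highest library for 33 of the 38 members that had at least 20 UMIs, and it held 146 endothelial cells, against 853 in Flox control 2 and 1736 and 1827 in Ms4a3 cKO. The median over the members was -0.21 with Flox control 1 left out and -1.38 with Flox control 2 left out, and 0 members were called by edgeR with any 1 library left out.

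Monocyte-macrophages, the blood-derived class at which the Cre is aimed, did not follow that order. edgeR called 0 of 39 members among 12170 genes (0%), with 4 members and 1415 genes at an unadjusted p under 0.05; DESeq2 called 1 member lower and 373 genes in all. The fold changes were above 0 for 28 members and below 0 for 11, with a median of 0.18 against -0.01 over all genes. This split depended on how the class was drawn: 37 members were above 0 and 2 below with predicted doublets kept (median 0.89) and at Leiden resolution 0.5 (median 0.94), and 18 above and 21 below with interferon genes kept in clustering (median -0.07). Both Ms4a3 cKO libraries lay above both Flox control libraries in 14 members and below in 2, against 28.3% and 18.4% of all genes. The replicates differed by a median of 0.48 (log2) between Ms4a3 cKO and 0.41 between Flox control libraries.

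Among the sensors, Ifi204 stood at 336 and 240 CPM in Ms4a3 cKO monocyte-macrophages, against 126 and 177 in Flox control (0.80, SE 0.23, edgeR adjusted p = 0.362), and Ifi211 at 86.1 and 52.4, against 30.6 and 44.4 (0.77, SE 0.29). Ifi211 overlaps Mndal on the same strand. Zbp1, a sensor of Z-form nucleic acids, was at 23.8 and 16.8 CPM in Ms4a3 cKO, against 29.7 and 24.1 in Flox control (-0.59, SE 0.32). Oas2 stood at 20.1 and 15.3 CPM in Ms4a3 cKO, against 5.30 and 9.82 in Flox control (1.15, SE 0.30, edgeR adjusted p = 0.360). In Ifi204, Ifi211 and Oas2 both Ms4a3 cKO libraries were the higher ones, and in Zbp1 both were the lower ones. Bst2 stood at 29.7 and 24.6 CPM in Ms4a3 cKO, against 48.0 and 61.1 in Flox control (-1.14, SE 0.19, edgeR adjusted p = 0.349), the smallest unadjusted p of the members in this class (0.00201). Bst2 was thus below Flox control in both libraries while most members were not.

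Other abundant members of this class turned on 1 library. Rsad2 stood at 269 and 60.2 CPM in Ms4a3 cKO, against 89.9 and 56.8 in Flox control (0.96, SE 0.76), with Ms4a3 cKO 1 alone high. Ifitm3 stood at 575 and 501 CPM in Ms4a3 cKO, against 133 and 585 in Flox control (0.55, SE 0.59), with Flox control 1 alone low. Lgals3bp stood at 74.3 and 118 CPM in Ms4a3 cKO, against 292 and 93.1 in Flox control (-1.25, SE 0.68), with Flox control 1 alone high. Slfn5 (341 and 284 CPM in Ms4a3 cKO, against 275 and 249 in Flox control), Sp100 (282 and 261, against 162 and 248), Trim30a (207 and 190, against 172 and 174) and Oasl2 (113 and 102, against 104 and 97.2) differed by at most 0.29 in the fitted log2 fold change. With Flox control 1 left out, 34 members were above 0 with a median of 0.19 and 0 called, and with Ms4a3 cKO 1 left out the median was -0.14. Without Flox control 2, edgeR called 5 members higher (Ifitm3, Oas2, Ifi204, Dtx3l and Sp100) and 4 lower (Lgals3bp, Bst2, Zbp1 and Irf9) among 4456 genes called.

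The clusters behind this class differed between libraries: 1833 of 2717 and 992 of 1137 cells of Ms4a3 cKO lay in cluster 6, and 3018 of 3670 cells of Flox control 1 in cluster 5. Flox control 2 held 779 cells of the class and 3665 of cluster 4, which was kept apart. With cluster 4 added, 32 members were above 0 and 7 below, with a median of 0.21 against -0.02 over all genes and 0 called. Within cluster 15, whose leading genes are markers of monocytes, the members were at 84.6 and 38.5 per 10000 UMIs in Ms4a3 cKO, against 89.0 and 56.1 in Flox control. Fitted alone, cluster 15 had a median of 0.04 over 36 members with 0 called, and Ifitm3 was then at -0.54. The class's own 12 markers summed to 19640 and 17200 CPM in Ms4a3 cKO, against 43490 and 15540 in Flox control, and the 10 microglial markers to 2676 and 3308, against 8892 and 4398. Their part in the result was not tested.

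Neutrophils held the widest spread between replicates: a median over the members of 2.16 (log2) between the Ms4a3 cKO libraries and 1.58 between the Flox control libraries. Of 32 members that passed the filter, edgeR called 0 among 6527 genes (0%), with 1 member and 467 genes at an unadjusted p under 0.05, and DESeq2 called 0 members and 62 genes. The median fold change was 0.20 against 0.01 over all genes. Ms4a3 cKO 1 was highest for 22 of the 38 members that had at least 20 UMIs, and Ms4a3 cKO 2 lowest for 22. Only 1 member lay above in both Ms4a3 cKO libraries and 1 below, against 18.5% and 15.2% of all genes.

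Rsad2 in neutrophils stood at 1290 and 35.8 CPM in Ms4a3 cKO, against 358 and 134 in Flox control. Ifit1 stood at 695 and 23.2 CPM in Ms4a3 cKO, against 138 and 40.5 in Flox control (2.04, SE 1.37, edgeR adjusted p = 0.856). Cmpk2 stood at 233 and 41.1 CPM in Ms4a3 cKO, against 94.1 and 28.9 in Flox control (1.24, SE 0.94). In all 3, replicate 1 was the higher library of each genotype. Gbp2 showed the same at 502 and 25.03 CPM in Ms4a3 cKO, against 966 and 18.8 in Flox control. Ifi27l2a stood at 27.2 and 17.9 CPM in Ms4a3 cKO, against 113 and 37.6 in Flox control (-1.68, SE 0.68, edgeR adjusted p = 0.683), the single member of the class with an unadjusted p under 0.05. The direction of the median over the members turned with the library left out: it was -1.72 without Ms4a3 cKO 1 and -0.38 without Flox control 2, but 1.04 with Ms4a3 cKO 2 left out and 1.82 with Flox control 1 left out. Without Ms4a3 cKO 2, 31 members were above 0 and 5 below. The 10 neutrophil markers summed to 61230 and 54980 CPM in Ms4a3 cKO, against 81120 and 16240 in Flox control, and the class held 1268 and 291 cells in Ms4a3 cKO, against 160 and 502 in Flox control. The part of neither in the result was tested.

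**Figure D3:**
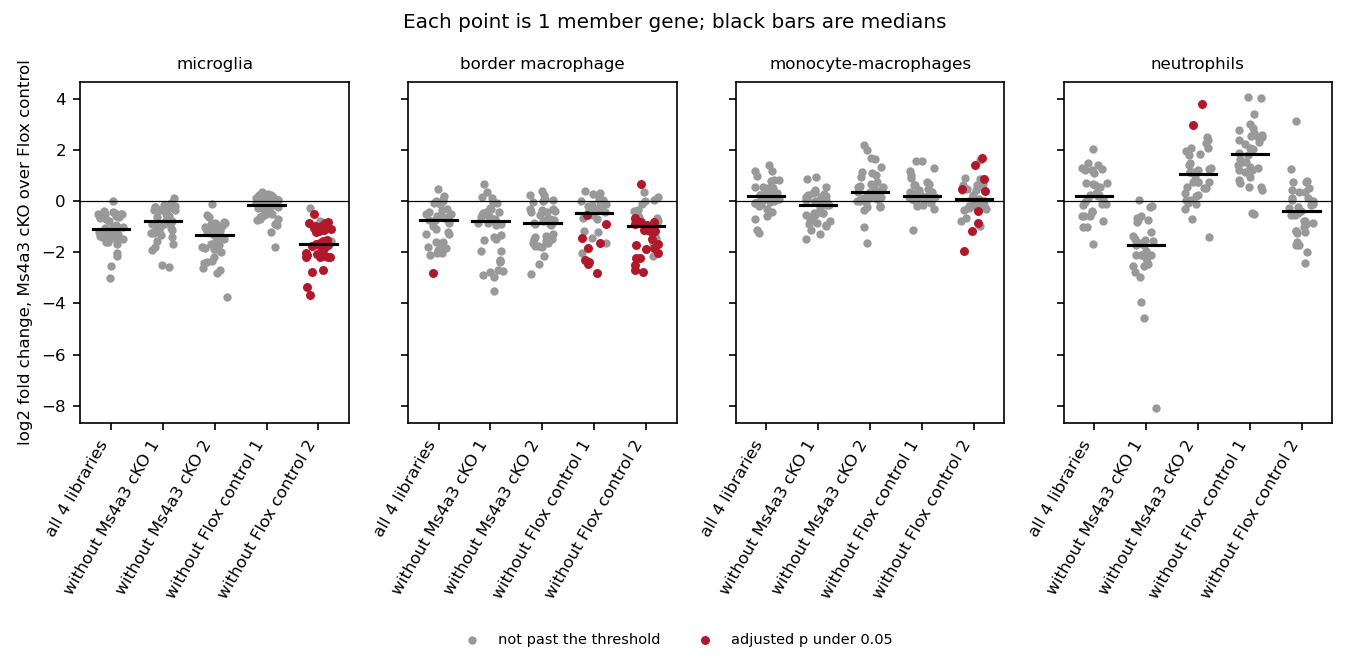
Log2 fold change of each member, Ms4a3 cKO over Flox control (y axis), with all 4 libraries and with each library left out (x axis), in 4 classes; each point is 1 gene, red where its adjusted p was under 0.05, and black bars are medians. The microglial median moves to -0.14 without Flox control 1, the border macrophage medians stay between -0.47 and -0.97, and the neutrophil medians run between -1.72 and 1.82.

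Whether the genotype difference of the members itself differed between classes was tested with an interaction term. Between monocyte-macrophages and microglia it was above 0 for 38 of 39 members (median 1.26 against 0.02 over all genes), and edgeR called 0 of 39 members among 13868 genes (0%), with 8 members and 1268 genes at an unadjusted p under 0.05. The median was 0.48 without Flox control 1, 0.41 without Ms4a3 cKO 1, 1.74 without Flox control 2 and 1.87 without Ms4a3 cKO 2. Between neutrophils and microglia, a comparison added after the data had been seen, 3 members were called (0.806% of 13029 genes were): Cmpk2 (2.25, SE 0.53, edgeR adjusted p = 0.0168), Ifit1 (2.82, SE 0.68, edgeR adjusted p = 0.0206) and Ifitm3 (1.91, SE 0.51, edgeR adjusted p = 0.0497). The difference was above 0 for 38 members with all 4 libraries (median 1.30 against 0.09 over all genes) and for 6 without Ms4a3 cKO 1, where the median was -0.90. None of the members was called with DESeq2's size factors. The median was 1.16 without Flox control 2, 2.01 without Flox control 1 and 2.72 without Ms4a3 cKO 2. Of 102 other pathway genes tested in this comparison, 3 were called, and all 3 belong to the cluster of PYHIN genes that holds Ifi204 and Ifi211. Ifi209 had 133 and 42.9 CPM in Ms4a3 cKO neutrophils, against 15.7 and 20.2 in Flox control, and 28.5 and 37.6 CPM in Ms4a3 cKO microglia, against 84.9 and 29.3 in Flox control (difference 2.87, SE 0.57). Ifi213 and Ifi206 rested on few neutrophil UMIs: Ifi213 had 63 and 6 in Ms4a3 cKO, against 1 and 2 in Flox control, and Ifi206 had 72 and 11, against 2 and 3.

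In the other 8 classes tested no member was called between genotypes. In oligodendrocytes 0.16% of 12520 genes were called and in cluster 4, which lay mostly in Flox control 2, 0.0427% of 9363; in cluster 8, cluster 7, astrocytes, fibroblasts, choroid plexus and neurons or neuroblasts the share was 0%. Members with an unadjusted edgeR p under 0.05 were counted beside all genes. There were 2 of 31 in oligodendrocytes (1817 of 12520 genes) and 4 of 39 in cluster 4 (817 of 9363). Cluster 8 had 6 of 39 (807 of 9815) and cluster 7 had 6 of 29 (418 of 8172). Astrocytes had 6 of 28 (1747 of 11629) and fibroblasts 8 of 30 (942 of 9709). The choroid plexus had 1 of 23 (469 of 7886) and neurons or neuroblasts 0 of 8 (378 of 6949). In oligodendrocytes, the choroid plexus and neurons or neuroblasts the share of members lay below that of all genes. In fibroblasts Ifit2 and Ifit3b, both among the 3 members with the smallest p, differed in direction. Ifit2 stood at 137 and 137 CPM in Ms4a3 cKO fibroblasts, against 15.2 and 25.2 in Flox control (2.65, SE 0.33, edgeR adjusted p = 0.206). Ifit3b stood at 0 and 1.71 CPM in Ms4a3 cKO (0 and 1 UMIs), against 18 and 12.2 in Flox control (38 and 72 UMIs). Fibroblasts numbered 109 and 155 in Ms4a3 cKO, against 237 and 779 in Flox control, so depth limits the Ms4a3 cKO values. The genotypes did not overlap in either gene, but both were picked by smallest p. The share of all genes without overlap was not counted in fibroblasts. Ifit1 and Ifit3 overlapped between genotypes in this class. Rtp4, a transporter of receptors to the cell surface, stood at 9.88 and 12.2 CPM in Ms4a3 cKO oligodendrocytes, against 33.3 and 25.02 in Flox control (-1.51, SE 0.34, edgeR adjusted p = 0.152). In cluster 8, Ifit3b stood at 3.53 and 8.19 CPM in Ms4a3 cKO (2 and 3 UMIs), against 29.8 and 18.8 in Flox control (181 and 78 UMIs; -2.25, SE 0.65, edgeR adjusted p = 0.464). Ifit3b was thus the member with the smallest p in microglia, border macrophages and cluster 8, on shared libraries.

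Single members of the remaining classes showed both directions. In astrocytes Ifi211 stood at 11.03 and 5.24 CPM in Ms4a3 cKO, against 1.12 and 1.72 in Flox control (2.33, SE 0.73), while Cmpk2 stood at 20.8 and 17.9, against 58.5 and 34.0 (-1.26, SE 0.39), and Ifitm3 at 258 and 179, against 464 and 349 (-0.91, SE 0.29); the edgeR adjusted p was 0.276 for each. In the choroid plexus Ifitm3 ran the other way, at 166 and 152 CPM in Ms4a3 cKO, against 80.1 and 107 in Flox control (0.80, SE 0.29, edgeR adjusted p = 0.764). None of these overlapped between genotypes. They were picked by smallest p, and the share of all genes without overlap was not counted in these classes. In cluster 4 Ifi44 stood at 11.6 and 6.85 CPM in Ms4a3 cKO, against 2.73 and 2.15 in Flox control (1.93, SE 0.48, edgeR adjusted p = 0.332). In cluster 7 Ifit1 stood at 25.8 and 13.5 CPM in Ms4a3 cKO, against 75.4 and 44.2 in Flox control, and Rsad2 at 28.6 and 38.5, against 63.2 and 67.4 (edgeR adjusted p = 0.903 for both). Cluster 7 carries few UMIs per cell and was not named. In cluster 8 Parp14 stood at 81.3 and 71.0 CPM in Ms4a3 cKO, against 149 and 123 in Flox control, and Trim30a at 207 and 235, against 484 and 294 (-0.93, SE 0.33). In neurons or neuroblasts Oasl2 stood at 31.5 and 62.7 CPM in Ms4a3 cKO, against 153 and 43.1 in Flox control, and overlapped.

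Single cells were then asked for a high interferon module. Each cell was thinned to 1000 UMIs, which left out 1134 and 1400 cells of Ms4a3 cKO and 440 and 1942 of Flox control. A cell was called high with at least 5 of 1000 UMIs from 35 inducible members. Bst2, Ifitm3, Ifi27l2a and Lgals3bp were left out of these as genes that many unstimulated cells were thought to carry. Among microglia not called high, Lgals3bp was found in 18.7% of cells and Ifitm3 in 8.28%. Ifi27l2a (4.76%) and Bst2 (1.91%) were rarer there than the inducible Trim30a (16.6%). High cells were chosen by their member UMIs, and their shares are a description. In microglia 3.60% and 13.9% of cells were high in Ms4a3 cKO 1 and 2, against 28.2% and 9.31% in Flox control 1 and 2; the exact 95% binomial intervals, which cover counting error only, were 3.08 to 4.18, 13 to 14.8, 27.0 to 29.4 and 8.46 to 10.2. The genotypes therefore overlapped, with Flox control 1 high and Ms4a3 cKO 1 low. Border macrophages had 7.37% and 6.78% high cells in Ms4a3 cKO, against 32.1% and 16.9% in Flox control, and did not overlap. Monocyte-macrophages had 13.7% and 10.4% in Ms4a3 cKO, against 11% and 11.6% in Flox control, the narrowest range of the immune classes. This range joined unlike clusters. In cluster 15, 24.3% of 870 and 17.1% of 111 cells were high in Ms4a3 cKO, against 41.9% of 86 and 21.4% of 224 in Flox control. Most cells of Flox control 1 lay in cluster 5 (11.4% high), and most of Ms4a3 cKO in cluster 6 (8.70% and 9.57%).

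Endothelial cells had 10.9% and 15.2% high cells in Ms4a3 cKO, against 50.7% and 16.6% in Flox control, where the value of 50.7% came from 70 of 138 cells. Neutrophils had 23% and 3.47% in Ms4a3 cKO, against 34.4% and 6.72% in Flox control. Replicate 1 was the higher library of both genotypes in neutrophils. Oligodendrocytes, the class with the lowest summed level, had 0.691% and 0.264% in Ms4a3 cKO, against 1.75% and 0.303% in Flox control, at 3265 and 3594 median UMIs per cell in Ms4a3 cKO and 7006 and 5265 in Flox control. The shares of the immune and endothelial classes lay above these in every library. With all 39 members and at least 10 of 1000 UMIs, the shares were 1.21% and 2.73% in Ms4a3 cKO microglia, against 13.4% and 2.96% in Flox control, and 17.1% and 0.772% in Ms4a3 cKO neutrophils, against 24.2% and 3.62% in Flox control.

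**Figure D4:**
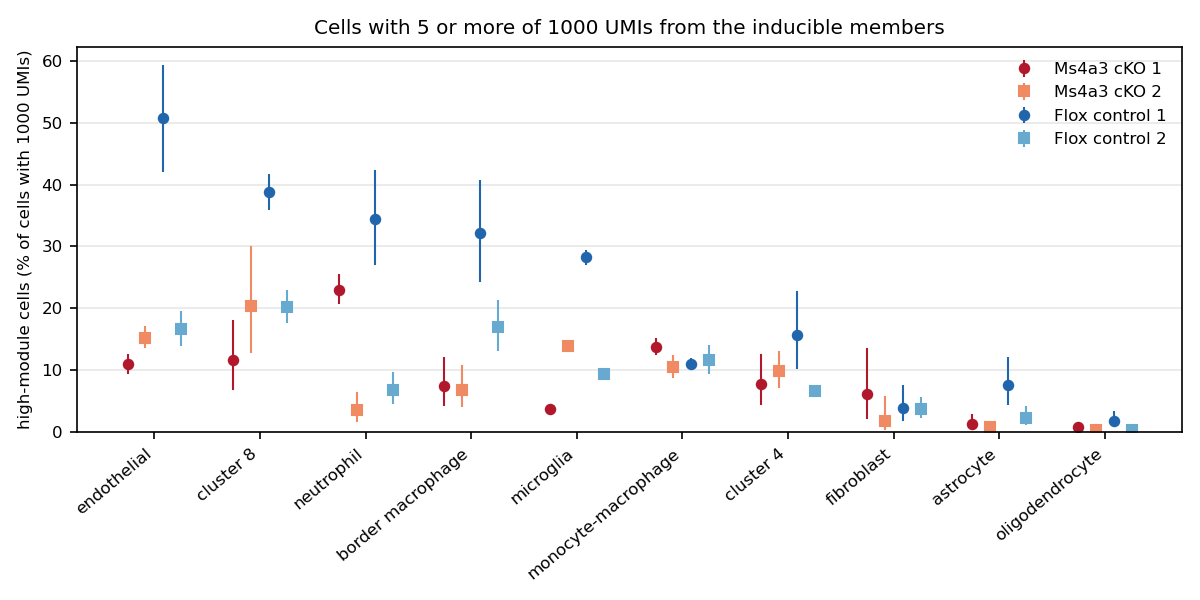
Share of cells with at least 5 of 1000 UMIs from the 35 inducible members (y axis, % of cells that have 1000 UMIs) in 10 classes; 1 point per library, with exact 95% binomial intervals. Flox control 1 is the highest library in endothelial cells (50.7%), neutrophils (34.4%), border macrophages (32.1%) and microglia (28.2%), while in monocyte-macrophages the 4 libraries lie between 10.4% and 13.7%.

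The threshold cut through a continuous range in microglia. Neutrophils had cells just under and at the threshold too, and a larger part of their high cells had 10 or more UMIs. Of 20636 microglia 2978 were high; 1222 had 4 UMIs, just under the threshold, 826 had 5, just at it, and 800 had 10 or more. High microglia carried a median of 7 UMIs from 6 members, against 1 UMI from 1 member in the others. Their depth before thinning was a median of 5575 UMIs, against 6087, and microglial markers were at a median of 23 of 1000 UMIs, against 19. Of 1981 neutrophils 360 were high, with a median of 17 UMIs from 9 members; 106 had 4 UMIs, 45 had 5 and 237 had 10 or more. The mean UMIs per 1000 in high and other neutrophils were 4.26 and 0.0271 for Rsad2, 2.21 and 0.00802 for Ifit1, and 1.98 and 0.0339 for Gbp2. Lgals3bp and Phf11b were near 0 in high neutrophils as well, at 0.0194 and 0.00833. Neutrophil markers were at a median of 43 of 1000 UMIs in high neutrophils, against 23 in the others, with means of 48.5 and 43.2. High cells were taken from classes named by such markers, so that they carry the markers of their own class is no result. Cells were pooled over libraries here: Flox control 1 held 1555 of the high microglia and 54 of the high neutrophils, and Ms4a3 cKO 1 held 271 high neutrophils. The part of the library in these marker differences was not tested.

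Upstream of the members, transcripts of the ligands were few. Ifnb1 gave 15 and 49 UMIs over all kept cells of Ms4a3 cKO, against 222 and 39 in Flox control, of which microglia held 13 and 39 in Ms4a3 cKO and 142 and 36 in Flox control. Ifng gave 2 and 0 UMIs in Ms4a3 cKO, against 26 and 3 in Flox control, nearly all in T or NK cells. Flox control 1 thus held most of the UMIs of both ligands. It also held 572 T or NK cells, against 112 in Flox control 2 and 45 and 79 in Ms4a3 cKO. The receptor genes Ifnar1 (70.8 and 73.6 CPM in Ms4a3 cKO microglia, against 49.8 and 71.0 in Flox control) and Ifnar2 (222 and 265, against 244 and 257) had no such order. Ifngr1, a chain of the interferon gamma receptor, stood at 356 and 305 CPM in Ms4a3 cKO microglia, against 172 and 206 in Flox control (0.67, SE 0.14, edgeR adjusted p = 0.464).

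Targets of interferon gamma and further interferon-induced genes were counted from a list of 118 pathway genes beside the members. In microglia 102 were tested with edgeR and 0 were called; 83 had a fold change below 0 and 19 above, with a median of -0.49. The 14 interferon gamma targets tested had a median of -1.10. Cxcl9, a T-cell attracting chemokine, stood at 0.393 and 0.161 CPM in Ms4a3 cKO microglia, against 50.9 and 1.14 in Flox control, so that its level rested on Flox control 1. Cxcl10 stood at 177 and 219 CPM in Ms4a3 cKO, against 404 and 327 in Flox control (-1.04, SE 0.23, edgeR adjusted p = 0.464), and its genotypes did not overlap. In border macrophages 87 of the pathway genes were tested and 1 was called: the helicase gene Ddx60 was lower in Ms4a3 cKO (-2.11, SE 0.26, edgeR adjusted p = 0.0330), with 66 genes below 0 and 21 above. In monocyte-macrophages 0 of 100 were called, with 55 above 0 and 45 below 0, and in neutrophils 0 of 72, with 34 above and 38 below.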

How the data were processed

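Whole-transcriptome BD Rhapsody libraries (3′ tags) were made from ipsilateral hemispheres without enrichment of a cell type, per the labels' protocols. The deposited values were raw UMI counts per gene and barcode, made by the authors with fastp 0.24.0 and STARsolo on mm10, per the submitters' processing notes; no further normalization was found in the values. Of 63181 barcodes, those with at least 500 UMIs, 250 genes and at most 20% mitochondrial UMIs were kept (60942), and 1257 doublets predicted by Scrublet were removed, which left 59685 cells. Cells were clustered with scanpy 1.11.5 and leidenalg 0.10.2 (2000 variable genes, 30 principal components, 15 neighbours, resolution 1) without 157 member and pathway genes, and clusters were assigned to classes by hand from marker lists and their leading genes.

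UMIs were summed per class and library where each library held at least 50 cells. edgeR 4.0.16 tested the genotypes (quasi-likelihood test, TMM, default filter on low counts), with Benjamini-Hochberg adjustment over all genes; DESeq2 1.42.0 was an alternative. The standard error is the fold change divided by the root of the test's F statistic. The fits were also run on simulated counts with a fixed dispersion for all genes, which was not matched to the spread between these libraries. Class comparisons and interactions had library as a block. CPM are UMIs per 1000000 of a class in a library, without TMM. Intervals of shares are exact (Clopper-Pearson). With 2 libraries a genotype, an exact permutation test cannot go below p = 0.333, so shares and sums carry no p.

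Values per library are given in microglia and monocyte-macrophages for the 8 members with the highest mean CPM and for the 5 with the smallest p, in other classes for members among the 3 with the smallest p, and in class comparisons for the 4 largest called fold changes each way with a mean of at least 20 CPM; further genes were picked after their values were seen. The members, the pathway list and the marker lists were chosen with earlier results of these data known. Other classes and comparisons are not reported here.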

Additional observations from a re-analysis of the deposited data

Results flagged for a closer look

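The genotype difference of 3 members differed between neutrophils and microglia by the interaction term of edgeR's quasi-likelihood test. Cmpk2 differed by 2.25 (log2), Ifit1 by 2.82 and Ifitm3 by 1.91, each higher in Ms4a3 cKO over Flox control in neutrophils than in microglia. The comparison was chosen after seeing the data. None of the 3 was called without Ms4a3 cKO 1, without Flox control 2 or with DESeq2's size factors. Ms4a3 cKO 1 held 1268 of the neutrophils, against 291 in Ms4a3 cKO 2 and 160 and 502 in Flox control, and its part in the result was not tested.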

How the results depend on the processing

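The causes of these shifts were not tested. In 32 summary results, 298 alternative values kept their side and direction and 43 moved; of single genes 649 did, 40 gained and 21 lost a call, and 29 turned. Members called lower in microglia numbered 5 with DESeq2 and 1 in cluster 2 alone, and 0 to 35 with single libraries left out. In monocyte-macrophages 4 were higher and 2 lower with no filter on low counts, among 1093 of 20582 genes called. With DESeq2 1 was lower in that class, among 373 of 12170. In neutrophils 2 were higher with no filter, among 168 genes called. In border macrophages 6 were lower with DESeq2, and 0 to 22 lower and 0 to 1 higher with a library left out; in endothelial cells 2 were lower with DESeq2. The interaction with microglia called 0 to 7 members in monocyte-macrophages, and in neutrophils 0 to 26, with 0 under DESeq2's size factors. Over microglia, monocyte-macrophages had 3 higher members with cluster 4 added, and 1 to 13 higher and 1 to 8 lower with a library left out; neutrophils had 7 to 18 higher and 3 to 10 lower.

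The labels number both genotypes 1 and 2 without saying what a number shares. The correlation of same-numbered deviations was -0.188 in microglia, -0.248 in monocyte-macrophages and 0.237 in neutrophils. With a replicate block 0 members were called in these classes, and 0 in endothelial cells and border macrophages, where Ifit3b was no longer called. Crossing the pairing, chosen after seeing the data, called 21, 85 and 0 genes in the 3 classes and 0 members.

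Shares of high cells (Ms4a3 cKO minus Flox control, percentage points) in microglia with all members were -6.19, and -13.3 with lower thresholds. In monocyte-macrophages the whole-module difference was 0.271, and 7.36 with predicted doublets kept and 7.05 at Leiden resolution 0.5. The inducible difference was 0.795, and 3.03 with lower thresholds, 8.94 with doublets kept, 8.70 at resolution 0.5 and -1.36 with interferon genes kept in clustering. Summed members differed by 7.04 per 10000, and by 31.9 at resolution 0.5.

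Single genes turned as follows. In microglia, leaving out libraries gave Lgals3bp -2.06 to 0.25, Ifi204 -0.88 to 0.27, Parp9 -0.95 to 0.038, Sp100 -1.15 to 0.047 and Irf9 -0.98 to 0.10. In monocyte-macrophages it gave Ifitm3 -0.09 to 1.68, Slfn5 -0.16 to 0.36, Trim30a -0.14 to 0.22, Lgals3bp -1.95 to 0.073, Rsad2 -0.48 to 1.67 and Oasl2 -0.29 to 0.18. In neutrophils it gave Ifit1 -2.11 to 3.40 and Cmpk2 -0.73 to 2.50. In cluster 15 alone Ifitm3 was -0.54, Slfn5 -0.22, Sp100 -0.44 and Trim30a -0.54. With interferon genes kept in clustering Slfn5 was -0.10 and Trim30a -0.10; Trim30a was -0.005 at resolution 2 and -0.13 with cells thinned to 1000 UMIs. Oasl2 was 0.64 and Zbp1 0.26 with doublets kept, 0.66 and 0.27 at resolution 0.5, and Oasl2 0.082 with cluster 4 added. At 5 and 6 UMIs of Ifit3b in Ms4a3 cKO border macrophages, depth limits that value.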

Other observations

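The classes with fewer than 50 cells in a library carried member genes too, and are given as values. Pericytes had 37.5 and 36.0 member UMIs per 10000 in Ms4a3 cKO, against 67.1 and 36.3 in Flox control, and cluster 17, which carries pericyte and smooth muscle markers, had 23.7 and 24.8, against 38.1 and 28.1. T or NK cells had 35.2 and 35.1 in Ms4a3 cKO, against 62.2 and 22.97 in Flox control. Oligodendrocyte precursors had 3.82 and 8.57 in Ms4a3 cKO, against 14.3 and 6.95 in Flox control. Flox control 1 was the highest library in all 4.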
